A study of Mus musculus with 6 samples.

Results

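The 10 genes *Cst9*, *Cst8*, *Ptgds*, *Aard*, *Tesc*, *Etd*, *Mro*, *Cldn11*, *Gstm6* and *Mmd2* were studied as markers of Sertoli cells, to see which of these products the supporting cells of a testis lacking *Amh* and *Inhbb* kept or lost. They were chosen by symbol from a list of Sertoli secreted and membrane markers, and all 10 were found among the 26251 genes listed in any of the 6 single cell libraries. The choice was made with earlier results of these data known. Gonads of mouse embryos at E15.5 were dissociated and captured on the 10x Genomics platform, with 2 libraries for each of 3 groups. Control XY testes were *Amh*+/+; *Inhbb*+/+, dKO XY testes were *Amh*-/-; *Inhbb*-/-, and control XX ovaries were *Amh*+/+; *Inhbb*+/+. Mice came from crosses in the C57BL/6 background, the deletions are present in every cell, and the gonad pair of an embryo was pooled. Of 68064 barcodes, 39350 passed the filters on genes and on mitochondrial and hemoglobin transcripts, and these cells held between 118475468 and 221675316 UMIs (unique molecular identifiers, which count mRNA molecules) per library. Between 4 and 25 cell barcodes were shared by a pair of libraries. The share of barcodes with a high mitochondrial content was 24.4% and 28.3% in the dKO XY libraries and between 2.22% and 9.35% in the others. The part of this difference in the results was not tested. Within the supporting cells that were analysed, the median mitochondrial share was 7.16% and 10.8% in control XY and 7.91% and 9.91% in dKO XY. The targeted gene *Amh* matched the labels, since the supporting cells of control XY held 2194 and 2095 CPM of *Amh* (UMIs scaled to a total of 1000000 over the cells of a type in a library), those of dKO XY 18.6 and 15.9 CPM. For *Inhbb* these levels were 174.6 and 205.4 CPM against 43.0 and 51.7 CPM. Control XX, which carries intact *Inhbb*, was lower still at 38.0 and 26.9 CPM, so the level of *Inhbb* by itself does not show its deletion.

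Supporting cells become Sertoli cells in the testis and granulosa cells in the ovary. Fetal Sertoli cells enclose the germ cells in cords and secrete hormones such as anti-Müllerian hormone together with enzymes, carrier proteins and protease inhibitors. *Cst8* and *Cst9* encode secreted members of the cystatin family, many of which inhibit cysteine proteases. Whether *Cst8* and *Cst9* do so was not tested. *Ptgds* encodes lipocalin-type prostaglandin D synthase, a secreted enzyme that makes prostaglandin D and is known from the developing testis as part of a loop that maintains *Sox9*. *Cldn11* encodes claudin 11, the strand-forming claudin of Sertoli tight junctions, and *Mmd2* a multipass membrane protein of the progestin and adipoQ receptor (PAQR) family. *Tesc* encodes tescalcin, a calcium-binding EF-hand protein that attaches to membranes through a lipid. The label of secreted and membrane products does not hold for every gene of the list, since *Gstm6* encodes a cytosolic glutathione S-transferase and *Mro* (maestro) a nucleolar protein. *Aard* and *Etd* are named for an alanine and arginine rich domain and for embryonic testis differentiation.

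Gene positions are those of GRCm38 (GENCODE M21). *Cst8* (chromosome 2, 148798785 to 148805595) and *Cst9* (chromosome 2, 148835147 to 148838738) stand on the same strand with 29551 bp between them. *Ptgds* is on chromosome 2 from 25466709 to 25470046, *Etd* on chromosome X from 53434918 to 53443576 and *Cldn11* on chromosome 3 from 31149920 to 31164324. *Gstm6* is on chromosome 3 from 107938847 to 107943749, among paralogs of its family. *Tesc* (118027743 to 118061878) and *Mmd2* (142562358 to 142608800) are on chromosome 5 and *Aard* is on chromosome 15 from 52040107 to 52045722. How reads shared with near-identical paralogs were counted is not given in the sources used here, which leaves the levels of *Gstm6* and of the cystatins uncertain to that extent.

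RefSeq promoters (GRCm38.p6, 250 bases before to 50 bases after the start of the gene, 5′ to 3′ on the strand of the gene) are shown for the neighbouring cystatins, whose patterns differ, and for *Etd*, the gene whose transcripts were closest to absent from control XX. Of the 10 genes, 8 were matched in that table. Capitals mark matches, on either strand, to SOX motifs (AACAAT or AACAAA), NR5A1 motifs (AAGGTCA or AAGGCCA) and GATA motifs (AGATAA or TGATAA); a FOX motif (TGTTTAC) was searched too. The windows are chr2:148834897-148835196 (+) for *Cst9*, chr2:148798589-148798888 (+) for *Cst8* and chrX:53434668-53434967 (+) for *Etd*.
Cst9: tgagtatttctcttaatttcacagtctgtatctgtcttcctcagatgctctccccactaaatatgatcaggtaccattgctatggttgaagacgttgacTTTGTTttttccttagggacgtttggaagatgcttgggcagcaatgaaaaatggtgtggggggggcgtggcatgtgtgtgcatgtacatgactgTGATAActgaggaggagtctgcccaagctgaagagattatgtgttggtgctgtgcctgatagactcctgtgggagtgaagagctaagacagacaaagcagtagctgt
Cst8: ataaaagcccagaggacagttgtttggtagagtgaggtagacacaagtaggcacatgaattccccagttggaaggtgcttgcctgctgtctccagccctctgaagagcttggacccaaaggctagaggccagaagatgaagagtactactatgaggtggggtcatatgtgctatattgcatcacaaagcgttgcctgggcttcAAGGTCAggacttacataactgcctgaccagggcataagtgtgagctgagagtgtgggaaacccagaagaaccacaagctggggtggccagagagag
Etd: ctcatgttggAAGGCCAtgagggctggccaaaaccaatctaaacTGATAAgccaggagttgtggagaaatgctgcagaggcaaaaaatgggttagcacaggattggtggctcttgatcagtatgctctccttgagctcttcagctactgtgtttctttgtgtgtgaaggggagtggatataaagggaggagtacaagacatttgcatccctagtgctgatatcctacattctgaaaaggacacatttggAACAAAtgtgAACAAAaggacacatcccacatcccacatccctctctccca
The *Cst9* window held a SOX match that starts at position -151 and a GATA match at -57, counted from the RefSeq start on which the windows are set. That of *Cst8* held an NR5A1 match at -47 and none of the others. The RefSeq start of *Cst8* lies inside the GENCODE gene given above, and so does this match, while the starts of *Cst9* and *Etd* are the same in both. The window of *Etd* held SOX matches at -1 and 10, a GATA match at -206 and an NR5A1 match at -240. Among the other matched genes, only *Cldn11* had a match, a SOX motif at -233. Of all 32851 promoter windows, 27.7% held a SOX match, 18.6% a GATA match, 10.6% an NR5A1 match and 3.65% a FOX match, so these matches are common and describe the letters of a window and not binding.

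The other cell types were told from the supporting cells by markers that include none of the 10 genes, and the genes were also left out of the clustering. In control XY gonads, 9 of the 10 genes had their highest mean level in supporting cells. The exception was *Cst8*, at 1276 and 1319 CPM in Leydig cells, the steroid-producing cells of the testis, against 214 and 206 CPM in supporting cells. The list therefore holds 1 gene whose highest level was outside the Sertoli cells. *Mmd2* was also not confined to supporting cells, with 51.3 and 50.1 CPM in control XY Leydig cells and 23.1 and 21.5 CPM among the interstitial cells, against 61.6 and 63.2 CPM in supporting cells. *Gstm6* was at 57.0 and 71.4 CPM in control XY Leydig cells, far below its 806 and 851 CPM in supporting cells.

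**Figure D1:**
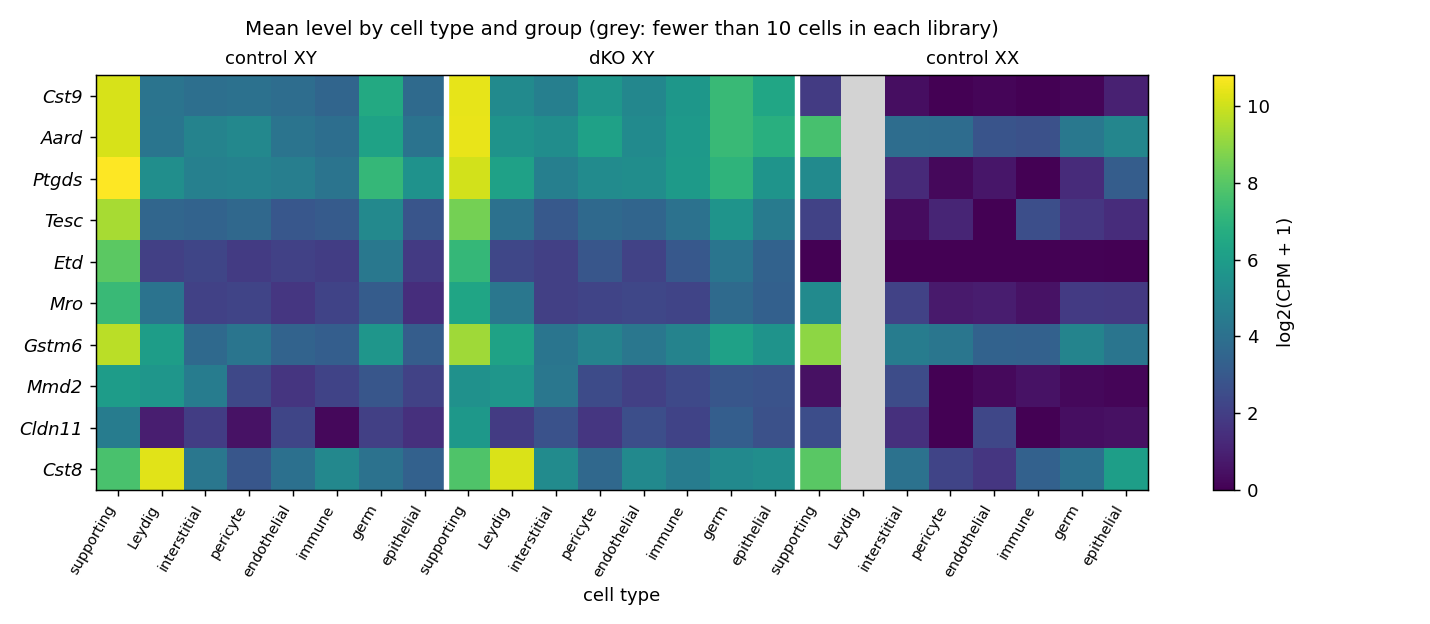
Mean level of the 10 genes, as log2(CPM + 1), in 8 cell types (columns) of each group, over 2 libraries (1 library for control XY germ cells); Leydig cells of control XX are grey because neither library had 10 of them. Supporting cells are brightest for 9 genes in control XY, while *Cst8* is brightest in Leydig cells at 1297 ± 30.4 CPM (SD, n = 2).

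Low levels of several genes were also found in XY cell types other than these. *Cst9*, for example, was at 10.97 and 15.99 CPM in control XY endothelial cells, at 23.7 and 37.9 CPM in those of dKO XY, and at 0 and 0.196 CPM in those of control XX. Germ cells of dKO XY (439 and 311 cells) carried more, at 132 and 193 CPM of *Cst9*, 134 and 191 CPM of *Aard* and 100.5 and 161.2 CPM of *Ptgds*. Control XY had only 17 and 7 germ cells. Those of replicate 1 held 94.2 CPM of *Cst9*, 73.5 CPM of *Aard* and 148.5 CPM of *Ptgds*, so such levels were not particular to dKO XY. Free RNA in droplets can give a level in cells that do not express a gene. The part of it in these values, or of doublets, which were not removed, was not tested. Small values in other XY cells are read here beside these levels, which differed between cell types of the same libraries and are no single background.

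Control XX and control XY supporting cells were compared first, to show how far each gene marks the testis. The UMIs were summed over the supporting cells of each library, which numbered 223 and 451 for control XY, 1210 and 903 for dKO XY, and 2919 and 1018 for control XX. Of the 10 genes, 9 were lower in control XX and none was higher, where 24.7% of all 15699 genes tested were called lower and 26.2% higher at an adjusted p under 0.05 (50.9% in all). The genes were chosen as Sertoli markers, with earlier results of these data known. This count and the p-values of this comparison therefore describe the list and are no test of it. *Etd* had 3 and 0 UMIs in the control XX libraries, of 82221186 and 26822757, against 2456 and 2858 UMIs in control XY. Over both libraries this is a ratio of 9209, with an exact interval from 3150 to 44671 that covers counting error only. *Cst9*, at 1195 and 1103 CPM in control XY and 2.77 and 2.61 CPM in control XX, differed by -8.79 ± 0.25 on the log2 scale (SE, adjusted p = 3.2e-09). *Tesc* and *Mmd2* were similarly close to absent, at 2.85 and 3.95 CPM and at 0.255 and 0.559 CPM in control XX. *Ptgds* kept 36.5 and 33.2 CPM in control XX, or 1.84% of the control XY level. *Aard*, *Mro* and *Cldn11* stood at 16.5%, 21.1% and 21.5% of the control XY level. For *Cldn11* this was 5.31 and 4.62 CPM, beside 3.51 and 4.31 CPM in control XX endothelial cells and between 0.128 and 0.516 CPM in control XX germ cells. Whether endothelial cells express *Cldn11* themselves was not tested. *Gstm6* was at 437 and 584 CPM in control XX, 58.6% of control XY (95% interval 46.0 to 74.8%). *Cst8* was at 271 and 259 CPM in control XX and did not pass the test (120% of control XY, interval 97.1 to 149%, adjusted p = 0.14). As a group, the list thus ranges from *Etd* and *Cst9*, which were nearly absent from the ovary, to *Cst8*, which was not called between the sexes.

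Supporting cells of dKO XY were then compared with those of control XY, to ask which products were kept without *Amh* and *Inhbb*. Of the 10 genes, 4 were lower, 1 was higher and 5 did not pass the test, where 7.72% of all genes tested were called lower and 11.4% higher (19.1% in all). *Mro*, *Etd*, *Tesc* and *Ptgds* fell to between 51.5% and 60.5% of the control XY level, *Cldn11* rose to 238%, and *Cst9* and *Aard*, among the most abundant of the list, were not called. The median log2 fold change of the 10 genes was -0.48, beside 0.016 for all genes. Markers of other cells moved with the groups. The 8 germ cell markers summed to 45.8 and 33.4 CPM in supporting cells of control XY against 123 and 183 CPM in dKO XY, and the 9 granulosa markers to 935 and 927 CPM against 2283 and 2783 CPM, of which *Kctd14* gave 864 and 896.5 CPM against 1843 and 2270 CPM. Their part in these differences was not tested.

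*Tesc* was at 623 and 727 CPM in control XY against 412 and 339 CPM in dKO XY, and the groups did not overlap (55.5% of control XY, 95% interval 43.3 to 71.05%, adjusted p = 0.0043). *Mro*, on chromosome 18 from 73859385 to 73881333 of GRCm38, was at 154 and 165 CPM in control XY against 89.8 and 75.2 CPM in dKO XY. It had the lowest share of the control level, 51.5% (41.4 to 64.2%, adjusted p = 0.0010). *Etd* was at 335 and 209.6 CPM in control XY against 167 and 124 CPM in dKO XY, with the wider spread in the control (53.5%, 38.3 to 74.6%, adjusted p = 0.015). Its call was lost without control XY replicate 1 (adjusted p = 0.11) and without dKO XY replicate 2 (0.063). *Ptgds*, the most abundant of the list in control XY, was at 1804 and 1817 CPM there and at 1340.4 and 859 CPM in dKO XY (60.5%, 45.3 to 80.7%, adjusted p = 0.021). It was not called without control XY replicate 1 (0.062), without control XY replicate 2 (0.084) or without dKO XY replicate 2 (0.13).

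*Cldn11* was at 21.2 and 23.3 CPM in control XY against 58.1 and 48.3 CPM in dKO XY. Both dKO XY libraries lay above both control XY libraries, by 1.25 ± 0.15 on the log2 scale (SE, adjusted p = 0.00022). The level in control XX was lower than in either, at 5.31 and 4.62 CPM, so that the difference in dKO XY went away from the ovarian level. *Cst9* was at 1623 and 1117 CPM in dKO XY and *Aard* at 1709 and 1108 CPM, against 1284 and 1030.5 CPM of *Aard* in control XY. For both, dKO XY replicate 1 was above the control libraries and replicate 2 was within their range. The intervals of the dKO XY level ran from 91.4 to 154% of control XY for *Cst9* and from 89.0 to 165% for *Aard* (adjusted p = 0.37 and 0.40). *Cst8* was at 259.9 and 202 CPM in dKO XY (110%, interval 88.5 to 136%, adjusted p = 0.58). *Gstm6*, at 669 and 568 CPM, and *Mmd2*, at 48.6 and 38.4 CPM, lay below the control XY range in both libraries but were not called (adjusted p = 0.090 and 0.056). *Gstm6* was at 74.4% of control XY (95% interval 58.4 to 94.9%) and *Mmd2* at 69.45% (53.4 to 90.3%). *Mmd2* was called lower under 10 of the 15 alternative settings and *Gstm6* under 3.

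**Figure D2:**
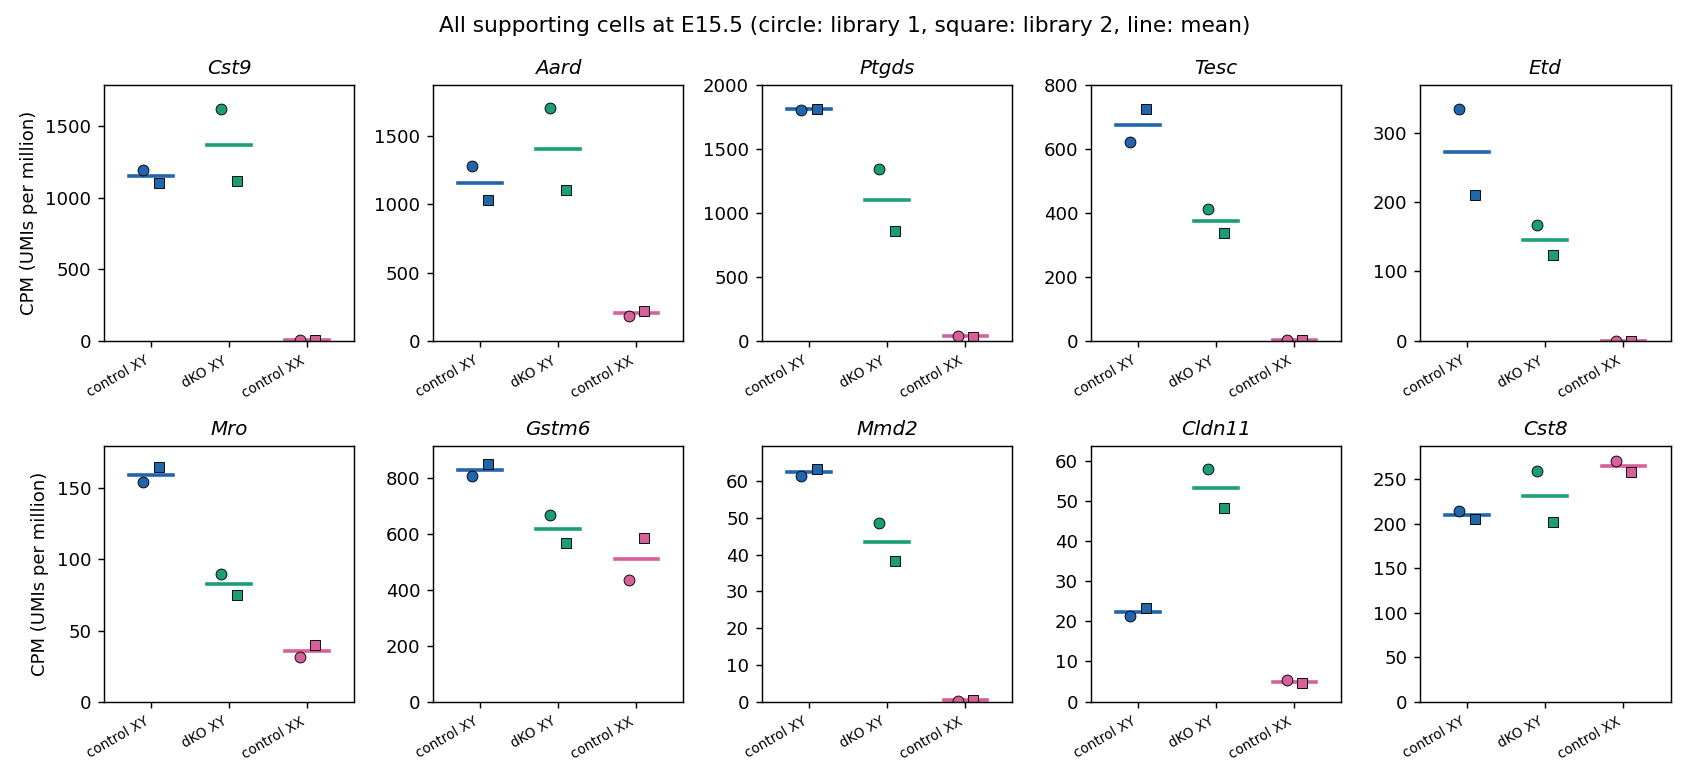
Level of each gene (CPM, axis from 0, a different scale in each panel) in all supporting cells of each library, with the mean of the 2 libraries of a group as a line. *Tesc*, *Etd*, *Mro*, *Ptgds*, *Gstm6* and *Mmd2* lie lower in both dKO XY libraries than in both control XY libraries, *Cldn11* lies higher, and *Cst9*, *Aard* and *Cst8* overlap. *Gstm6* and *Mmd2* were not called. How many genes at large separate in this way was not counted, so nothing is read from the separation alone.

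Against control XX, dKO XY supporting cells were higher in 8 of the 10 genes and lower in none, where 21.7% of all genes were called higher and 19.9% lower (41.6% in all). *Cst9* differed by 9.04 ± 0.25 and *Tesc* by 6.89 ± 0.21 on the log2 scale (SE, adjusted p = 7.2e-09 and 9.9e-09). *Etd* had 9992 UMIs in dKO XY supporting cells and 3 in control XX, a ratio of 5320 (interval 1820 to 25802, counting error only). *Mro* was at 244% of the control XX level (196 to 304%, adjusted p = 4.3e-05). *Cst8* and *Gstm6* did not pass the test (adjusted p = 0.47 and 0.11), and *Gstm6* was called without control XX replicate 2 (0.034). These comparisons share their libraries with the previous ones, and the choice of the genes as Sertoli markers limits their count in the same way.

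The sums over all supporting cells mix cells of different states. Before supporting cells were clustered again, those with a normalised level of at least 1 of *Sycp3* or *Tcf21* (markers of germ and interstitial cells) were left out, as the study did for cells positive for these genes. This left 198 and 423 cells of control XY, 1128 and 848 of dKO XY and 2687 and 862 of control XX, so the cells described from here on are fewer than those summed above. Among them, 2 subclusters were named Sertoli-like by their markers, with 189 and 407 cells from control XY against 655 and 393 from dKO XY. When their own principal components were used, the cells named Sertoli-like fell into clusters that followed the groups, one with 19 cells of control XY and 1064 of dKO XY and the other with 579 and 53, and levels are compared over both. The remaining dKO XY cells outside them, 473 and 455 cells, are called feminized after the study's term, although they were drawn by another clustering and come from 3 subclusters. Of these dKO XY cells, 830 were in a subcluster that no marker list named, with *Myl1*, *Cck* and *Pnmt* among its leading genes, 68 in another without a name, led by *Msx1*, *Akr1c14* and *Foxl2* and shared with 1379 control XX cells, and 30 in one named granulosa. The 9 granulosa markers summed to 3371 and 3760 CPM in the feminized cells, to 4248 and 4059 CPM in control XX supporting cells, to 1742 and 1906 CPM in dKO XY Sertoli-like cells and to 968 and 959 CPM in control XY Sertoli-like cells. *Kctd14* alone made up 2451 and 2929 CPM of this sum in the feminized cells, against 1730 and 1676 CPM in control XX, 1578 and 1699 CPM in dKO XY Sertoli-like cells and 942 and 931 CPM in those of control XY. The 14 Sertoli markers summed to 593 and 568 CPM in the feminized cells, to 225 and 271 CPM in control XX supporting cells, to 4170 and 3581 CPM in dKO XY Sertoli-like cells and to 8895 and 7784 CPM in control XY Sertoli-like cells. *Defb19* alone made up 4592 and 3887 CPM of this sum in control XY Sertoli-like cells and 2429 and 2045 CPM in those of dKO XY. It was at 319 and 339 CPM in feminized cells and 110 and 127 CPM in control XX supporting cells. The cells called Sertoli-like thus differed between the XY groups in the sum of the markers that named them, which include the deleted *Amh*.

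In Sertoli-like cells, *Tesc*, *Etd* and *Ptgds* were no longer called, while *Cldn11*, *Cst9* and *Aard* were higher in dKO XY and *Mro* lower. Of the 10 genes, 3 were higher in dKO XY, 1 was lower and 6 did not pass the test, where 8.71% of all 14839 genes tested were called higher and 5.38% lower (14.1% in all). *Cldn11* was at 23.0 and 25.4 CPM in control XY against 89.1 and 85.7 CPM in dKO XY, or 350% of control XY (95% interval 285 to 430%, adjusted p = 9.6e-06). *Cst9* was at 1383 and 1189 CPM in control XY against 2630.3 and 2159.7 CPM in dKO XY (181%, 141 to 232%, adjusted p = 0.0048). *Aard* was at 1459 and 1111 CPM in control XY against 2663 and 2022 CPM in dKO XY (177%, 131 to 238%, adjusted p = 0.016). The 2 dKO XY libraries were above both control libraries for each of these 3 genes. Without control XY replicate 2, *Cst9* and *Aard* were no longer called (adjusted p = 0.061 and 0.15), and *Aard* was not called when cells with more than 1500 genes were kept (0.063).

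*Mro* was the gene that remained lower, at 173 and 179.6 CPM in control XY and 137 and 128 CPM in dKO XY Sertoli-like cells (73.0%, 60.2 to 88.5%, adjusted p = 0.034). Its call rested on all 4 XY libraries, since leaving out any of them gave an adjusted p between 0.092 and 0.16. *Tesc*, at 722 and 781 CPM in control XY and 661 and 638 CPM in dKO XY, was at 84.1% (69.9 to 101%, adjusted p = 0.22), and it was called lower when cells with more than 1500 genes were kept (0.046). *Ptgds*, at 2067 and 1971 CPM and at 2136 and 1603 CPM, was at 89.9% (71.3 to 113%, adjusted p = 0.60). *Etd*, at 373 and 227 CPM and at 268 and 236 CPM, was at 81.7% (59.2 to 113%, adjusted p = 0.44). *Gstm6* and *Mmd2* were at 101% of control XY (intervals 81.2 to 126% and 77.3 to 132%, adjusted p = 0.97 and 0.98). *Cst8* was at 240.4 and 220.5 CPM in control XY against 344 and 283 CPM in dKO XY (132%, 108 to 162%, adjusted p = 0.072), and was called higher by DESeq2 (0.045) and with no filter on low counts (0.025). Whether the change in all supporting cells differed from that in Sertoli-like cells was not tested, because the second cells are part of the first. The 8 germ cell markers summed to 174 and 242 CPM in dKO XY Sertoli-like cells and to 53.3 and 35.5 CPM in those of control XY, led by *Dppa3* at 54.3 and 67.7 CPM against 14.2 and 10.99 CPM, and the part of this in the 3 higher genes was not tested.

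**Figure D3:**
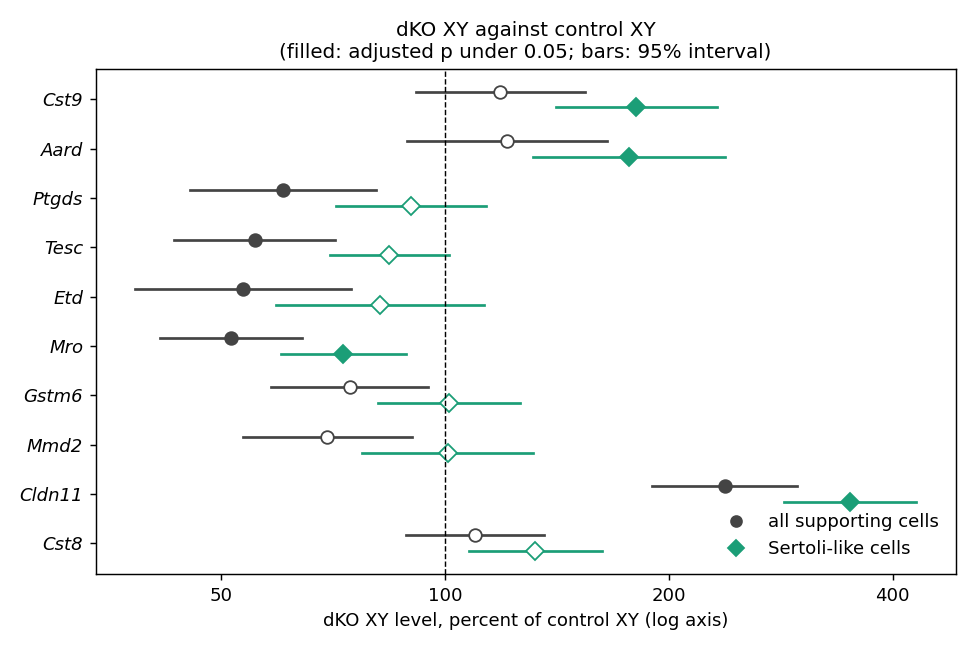
Level in dKO XY as a percent of control XY (log axis, dashed line at 100) from the fitted fold change, in all supporting cells (circles) and in Sertoli-like cells (diamonds), with 95% intervals; filled symbols have an adjusted p under 0.05. *Mro* lies under 100 in both sets and *Cldn11* over 100 in both. *Tesc*, *Etd*, *Ptgds*, *Gstm6* and *Mmd2* lie under 100 with their interval in all supporting cells only. Of these, *Gstm6* and *Mmd2* were not called.

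The feminized cells held much less of every gene than the Sertoli-like cells of the same libraries. Cells were divided by other genes, so this describes the division and is no test of it. *Cst9* was at 187 and 138 CPM in feminized cells, or 7.17% of the dKO XY Sertoli-like level. *Tesc* was at 58.4 and 56.9 CPM (9.45%), *Etd* at 25.6 and 20.4 CPM (9.67%) and *Ptgds* at 199 and 163 CPM (10.4%). *Aard* was at 348 and 260.2 CPM (13.8%), *Cldn11* at 15.7 and 13.2 CPM (17.5%), *Mmd2* at 15.46 and 9.79 CPM (18.8%), and *Mro* at 24.4 and 26.7 CPM (20.6%). *Gstm6* kept 27.2% and *Cst8* 49.7%, at 249.3 and 236 CPM and at 158 and 134 CPM. All 10 genes were lower in both libraries (among all genes 26.5% were called lower, 26.7% higher and 53.2% in all, from which nothing is read). The order thus ran from *Cst9*, with the lowest share, to *Cst8*, the gene shared with Leydig cells and with the ovary.

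In dKO XY replicate 2, several of these low levels were close to or under the level of germ cells. *Cst9* was at 138 CPM in feminized cells of dKO XY replicate 2 and at 193 CPM in its germ cells. *Tesc* was at 56.9 CPM in feminized cells of that library and at 59.8 CPM in its germ cells. *Ptgds*, at 163 against 161 CPM, and *Etd*, at 20.4 against 19.6 CPM, were level with the germ cells there. In replicate 1 feminized cells held more than germ cells, with 187 against 132 CPM of *Cst9* and 58.4 against 35.25 CPM of *Tesc*. For *Ptgds* this was 199 against 100.5 CPM and for *Etd* 25.6 against 14.8 CPM. Endothelial cells of dKO XY were lower, at 23.7 and 37.9 CPM of *Cst9* and 5.93 and 15.0 CPM of *Tesc*. They held 22.3 and 55.75 CPM of *Ptgds* and 1.575 and 5.12 CPM of *Etd*. *Gstm6* was at 249.3 and 236 CPM in feminized cells against 53.8 and 89.6 CPM in germ cells, *Cst8* at 158 and 134 CPM against 34.3 and 34.0 CPM, *Mro* at 24.4 and 26.7 CPM against 8.78 and 15.8 CPM and *Aard* at 348 and 260.2 CPM against 134 and 191 CPM. *Cst8* and *Mmd2* were the genes that were higher in Leydig cells than in feminized cells. The 6 Leydig markers summed to 299 and 369 CPM in feminized cells and to 109 and 134 CPM in dKO XY Sertoli-like cells, led in the former by *Cyp11a1*, and the part of these transcripts in the values of *Cst8* and *Mmd2* was not tested. The 8 interstitial markers summed to 531 and 582 CPM in feminized cells against 179.8 and 173 CPM in dKO XY Sertoli-like cells, led by *Col3a1* at 265 and 295 CPM against 67.7 and 67.6 CPM. Their part in the values of the 10 genes was not tested.

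**Figure D4:**
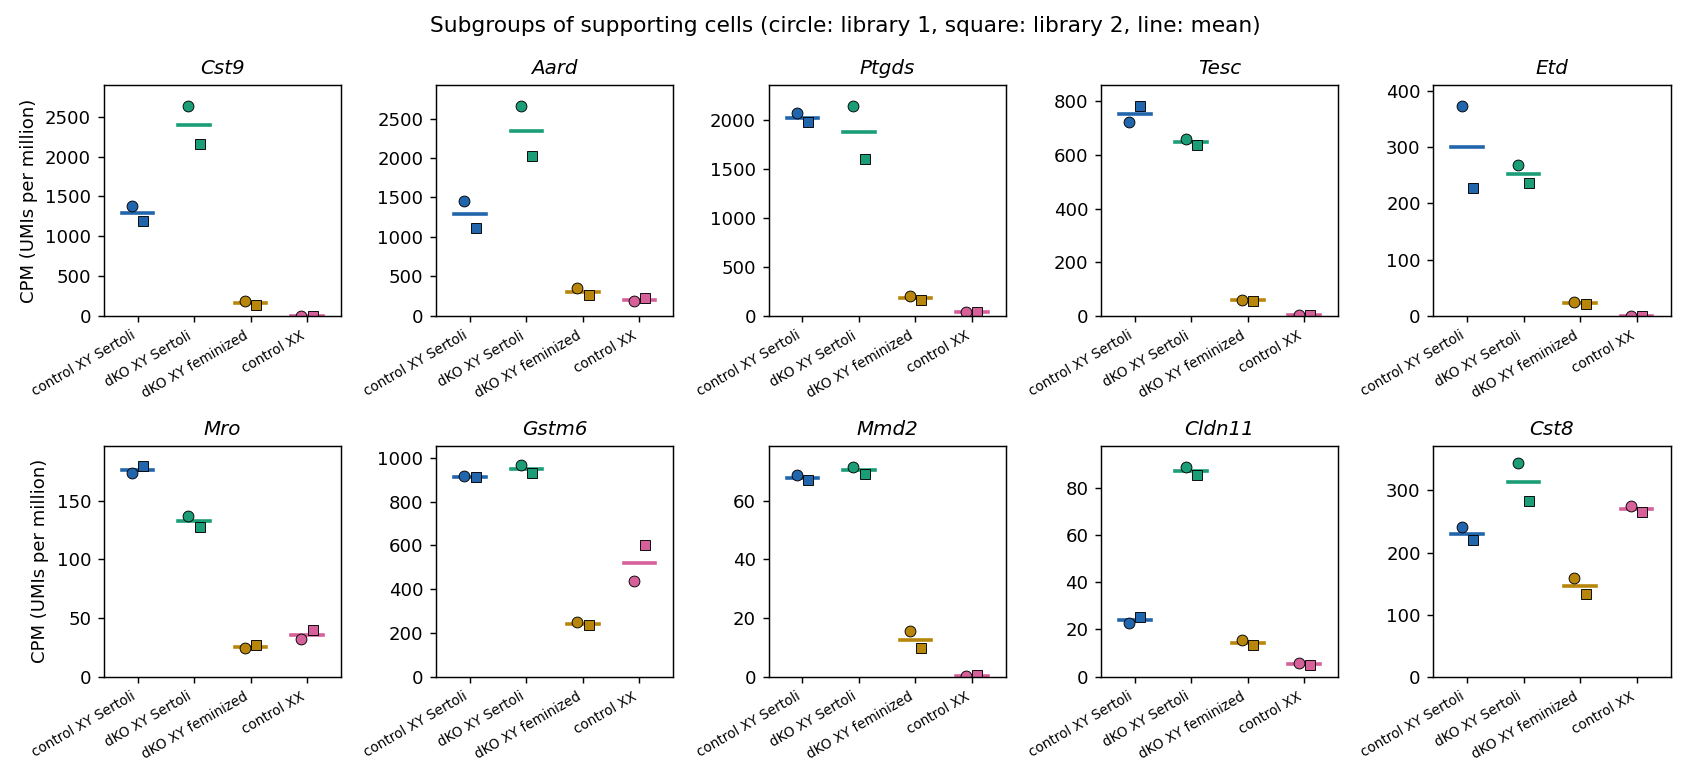
Level of each gene (CPM, axis from 0, a different scale in each panel) in Sertoli-like cells of control XY and dKO XY, feminized dKO XY cells and control XX supporting cells, by library, with the mean as a line. Feminized cells lie far below dKO XY Sertoli-like cells in every panel, and for *Gstm6*, *Cst8* and *Mro* they also lie below both control XX libraries. Of these, *Mro* was not called.

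Feminized cells were also compared with the control XX supporting cells that were left (2687 and 862 cells). Of the 10 genes, 7 were higher in feminized cells and 2 lower, where 16.1% of all genes were called higher and 12.0% lower (28.1% in all). The choice of the genes as Sertoli markers limits this count too. *Cst9*, *Tesc*, *Mmd2*, *Ptgds*, *Cldn11*, *Aard* and *Etd* were higher, by between 0.71 ± 0.20 for *Aard* (adjusted p = 0.019) and 5.99 ± 0.21 for *Cst9* (SE, adjusted p = 1.8e-08) on the log2 scale, leaving aside *Etd* with its 3 UMIs in control XX (ratio 742, interval 253 to 3610). For *Cst9*, levels outside supporting cells were present in dKO XY libraries, as described above. They were nearly missing from control XX, with 0.207 and 0 CPM in control XX germ cells. *Aard* was at 21.2 and 17.6 CPM in control XX germ cells, and *Cldn11* at 3.51 and 4.31 CPM in control XX endothelial cells beside 3.24 and 7.06 CPM in those of dKO XY. The part of such levels in these 7 differences was not tested. *Aard* lost its call without control XX replicate 1 (adjusted p = 0.12), without dKO XY replicate 1 (0.11) and with clusters from the supporting cells alone (0.75). *Gstm6* was lower, at 51.2% of the control XX level (41.0 to 64.0%, adjusted p = 0.00054), and so was *Cst8* at 59.5% (48.5 to 73.0%, adjusted p = 0.0017). Both genes were higher in supporting cells of the ovary than in the feminized cells, in every library. *Mro* was at 24.4 and 26.7 CPM in feminized cells and 31.7 and 39.5 CPM in control XX, and did not pass the test (adjusted p = 0.079). It was called lower in 4 of the 16 alternative settings, among them clusters from the supporting cells alone (0.0041) and the fit without control XX replicate 1 (0.035).

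Single cells showed the same division. To set cells of unequal depth side by side, each was thinned to 5000 UMIs, and no cell of these groups was shallower. A control XY Sertoli-like cell had UMIs of 7.23 and 6.98 of the 10 genes on average, and a dKO XY Sertoli-like cell of 7.35 and 7.30. Feminized cells had 2.59 and 2.46 and control XX supporting cells 2.21 and 2.35. Outside the supporting cells, dKO XY endothelial cells had 0.5 and 0.856, germ cells 0.991 and 1.38 and epithelial cells 1.07 and 2.11. The share of cells with at least 7 of the genes was 77.0% and 76.1% in dKO XY Sertoli-like cells and 3.81% and 3.74% in feminized cells. It was 2.28% and 3.22% in dKO XY germ cells and 0% in endothelial cells of both dKO XY libraries.

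By gene, *Cst9* was found in 98.9% and 98.0% of dKO XY Sertoli-like cells, 27.5% and 25.3% of feminized cells and 11.7% and 18.4% of dKO XY endothelial cells (100% and 99.7%, 60.04% and 64.6%, and 39.8% and 51.2% without thinning). In dKO XY germ cells *Cst9* was found in 17.5% and 28.6% of cells, so that its share in feminized cells of replicate 2 was not above that of germ cells. *Cldn11* was found in 7.94% and 10.1% of control XY Sertoli-like cells and 35.6% and 32.1% of those of dKO XY, with the same direction as its CPM. For *Mro* the shares of Sertoli-like cells were 61.9% and 57.7% in control XY against 47.0% and 48.9% in dKO XY. *Etd* was found in none of the 2687 and 862 control XX supporting cells that were left, after thinning, which allows a share of cells with an *Etd* UMI at this depth of up to 0.112% and 0.348% and sets no limit on cells expressing it. Without thinning the shares were 0.1116% and 0%. The median depth of dKO XY cells before thinning was 25026 and 35783 UMIs in Sertoli-like, 22439 and 26300 in feminized and 34634 and 42807 in endothelial cells.

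**Figure D5:**
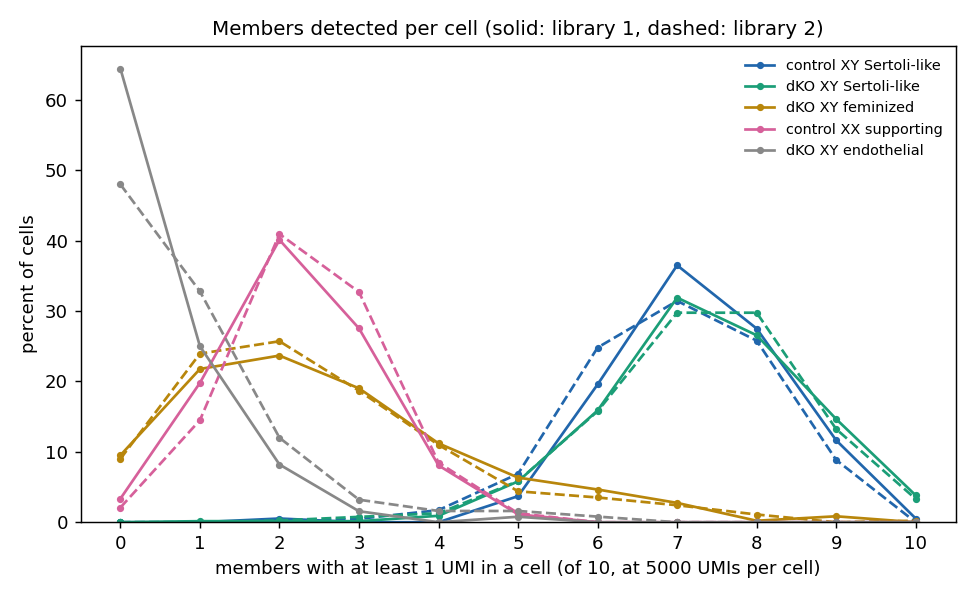
Percent of cells (vertical axis) by the number of the 10 genes with at least 1 UMI (horizontal axis), after thinning to 5000 UMIs, with a line for each library. Sertoli-like cells of both XY groups peak at 7 or 8 genes, feminized and control XX supporting cells at 2, and endothelial cells at 0.

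Outside the supporting lineage, Leydig and interstitial cells of dKO XY were set against those of control XY. Supporting cells were 223 of 6818 and 451 of 8569 cells in the control XY libraries and 1210 of 8151 and 903 of 5701 in those of dKO XY. The part of their free RNA in the differences below was not tested. In Leydig cells (770 and 1104 control XY cells against 699 and 724 from dKO XY), 2 of the 10 genes were higher in dKO XY and none lower, where 4.10% of all 14436 genes were called higher and 2.27% lower (6.37% in all). *Cst8*, the gene with its highest level there, was at 1276 and 1319 CPM in control XY against 1259 and 1132 CPM in dKO XY (90.7%, 95% interval 77.8 to 106%, adjusted p = 0.47). The called genes were *Aard*, at 12.01 and 22.4 CPM in control XY and 45.0 and 46.2 CPM in dKO XY (adjusted p = 0.016), and *Cldn11*, at 0.653 and 1.07 CPM and at 2.21 and 3.13 CPM (adjusted p = 0.023). Both are at or under the level of these genes in dKO XY endothelial cells, 22.1 and 47.6 CPM of *Aard* and 3.24 and 7.06 CPM of *Cldn11*, apart from *Aard* in replicate 1. For *Cldn11* the endothelial level may include expression by these cells, which was not tested. The *Cldn11* call was lost without dKO XY replicate 2 (adjusted p = 0.061). Without control XY replicate 2 the number of called genes rose to 5, with *Cst9*, *Ptgds* and *Tesc* also higher in dKO XY (adjusted p of 0.00051 or less), and without control XY replicate 1 *Cst9* was called beside the pair (0.027). In interstitial cells none of the 10 genes was called by edgeR, where 6.88% of all 17072 genes were called (4.08% higher and 2.79% lower). An unadjusted p under 0.05 was found for 5 of them, beside 21.0% of all genes, and DESeq2 called 2, beside 9.54% of all genes. Which genes were called changed with the library left out. *Cst8* and *Cldn11* were called without either control XX library, *Tesc* without control XY replicate 1, and *Cst9* and *Gstm6* without control XY replicate 2. *Cst8* was at 16.2 and 20.7 CPM in control XY interstitial cells and at 31.5 and 40.1 CPM in dKO XY (adjusted p = 0.072).

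The genes were set beside other lists, chosen by family or pathway. Of 20 other Sertoli products, which include the deleted *Amh* and *Inhbb*, 16 were lower and 1 higher in dKO XY supporting cells, with a median log2 fold change of -1.46, and 14 were lower and 2 higher in Sertoli-like cells, with a median of -0.97. Among all genes 7.72% were called lower and 11.4% higher in supporting cells, and 5.38% and 8.71% in Sertoli-like cells. The 10 genes studied here had a median of -0.48 in all supporting cells and 0.014 in Sertoli-like cells. *Hsd17b1*, which encodes a steroid dehydrogenase, fell from 325 and 275 CPM to 22.8 and 12.4 CPM, by 4.10 ± 0.30 on the log2 scale (SE, adjusted p = 1.1e-05). *Ccl17*, a chemokine gene, fell by 3.99 ± 0.42 and *Serpina5*, which encodes a protease inhibitor, by 3.82 ± 0.24 (adjusted p = 0.00011 and 5.2e-06). *Fgf9*, a growth factor gene, was the gene that rose, by 2.17 ± 0.18. Part of these 20 genes are also markers that named the cells. *Fgf9*, *Ctsc*, *Paqr5*, *Cldn3*, *Cldn6*, *Cdh1* and *Sox9* were named after their values were seen.

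Of 18 genes tested in supporting cells from a list of cystatins, cathepsins and *Lgmn*, 2 rose and 1 fell in dKO XY. This share is near the 19.1% called among all genes. *Ctsl*, which encodes cathepsin L, a cysteine protease, fell from 4357 and 4323 CPM to 1061 and 836 CPM (by 2.20 ± 0.16, adjusted p = 1.15e-05). *Cst9* was not called. *Ctsf* rose from 24.4 and 20.3 CPM to 34.8 and 29.1 CPM, and *Ctsc*, the cathepsin C gene, by 0.89 ± 0.21. In the prostaglandin pathway, 1 of 15 genes was called, *Ptges*, the prostaglandin E synthase, which fell from 32.3 and 23.9 CPM to 9.14 and 8.81 CPM. Of 23 junction proteins, 4 were higher and 3 lower, where 11.4% of all genes were called higher and 7.72% lower. *Gja1*, the connexin 43 gene, fell by 1.93 ± 0.13 and *Jam2*, a junctional adhesion molecule gene, by 2.03 ± 0.17 on the log2 scale (adjusted p = 8.2e-06 and 2.2e-05), *Cxadr* fell by 0.56 ± 0.16, and *Cgn*, the cingulin gene, rose by 0.69 ± 0.13. The other risen genes were *Cldn3*, *Cldn6* and *Cdh1*, whose levels were too low for the rule on named genes.

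Among all genes 11.4% were called higher and 7.72% lower in this comparison, against which the next 3 counts are to be read. Of 22 glutathione S-transferases, 4 were higher and 4 lower. *Gstm1*, next to *Gstm6* in family, fell from 1779 and 1771 CPM to 1003 and 909 CPM (by 0.90 ± 0.14, adjusted p = 0.0014), *Gsta3* fell by 1.499 ± 0.215 and *Gsta2* by 0.81 ± 0.20, and *Gstt1* rose by 0.98 ± 0.17. Of 10 PAQR receptors, 2 were higher and none lower. *Paqr8*, a membrane progestin receptor gene, rose by 0.78 ± 0.19, and the other was *Paqr5*. *Chp2*, a homolog of tescalcin, fell by 0.79 ± 0.16 and *Ppp3ca*, a calcineurin subunit gene, rose by 0.46 ± 0.13. Of 10 Sertoli transcription factors, 2 were higher and 2 lower. *Sox8* fell by 1.12 ± 0.13 and *Dmrt1* by 0.70 ± 0.16, *Nr0b1* rose by 2.05 ± 0.17 and *Wt1* by 0.62 ± 0.14, and *Sox9* was not called (-0.26 ± 0.14, adjusted p = 0.22).

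The pattern of each gene over 48 sums (libraries by cell types) was set against 13266 other genes by Pearson's r of log2(CPM + 1), as a description in which points share libraries and depth. *Hsd17b3*, which encodes a testosterone-forming enzyme, was most like *Etd* (r = 0.973), *Tesc* (0.960) and *Cst9* (0.943). Next for these 3 genes came *Bricd5* (0.943, 0.937 and 0.917), *RP23-250M11.3* (0.943 for *Tesc* and 0.917 for *Cst9*) and, for *Etd*, *Dhh* (0.935). For *Ptgds* the nearest were *Tmem184a* (0.929), *Hsd17b3* (0.923) and *Defb19* (0.918), and for *Aard* they were *Tmem184a* (0.941), *Tnni3* (0.935) and *Mt3* (0.916). For *Mro* they were *Gstm7* (0.920), *Rhox8* (0.908) and *Tubb3* (0.900), and for *Cldn11* *Reep2* (0.871), *Dhh* (0.860) and *Bricd5* (0.843). *Gstm6* was nearest to its paralog *Gstm1* and to *Rnd2* (0.914 each), then *RP23-192A6.2* (0.896). Among the genes near *Mmd2* were *Gsta2* (0.904) and *Gdnf* (0.874). *Cst8* stood apart, with *Fdxr* (0.949), *Acsbg1* (0.941) and *Pank1* (0.935), and its r with *Cst9* was 0.494. *Fdxr*, which encodes the ferredoxin reductase of mitochondrial steroid synthesis, was at 1064 and 1021 CPM in control XY Leydig cells.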

How the data were processed

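Single cells from 6 libraries of mouse gonads at E15.5 were analysed. The authors counted UMIs per gene and cell barcode with Cell Ranger, and the deposited counts are raw, whole numbers. Barcodes with over 2500 and under 9000 genes, under 25% mitochondrial and under 20% hemoglobin beta transcripts were kept and clustered (R 4.3.3, Seurat 5.3.0, 20 dimensions, resolution 0.21; supporting cells again with 8 dimensions, resolution 0.25, without those at a log-normalised level of at least 1 of *Sycp3* or *Tcf21*), with the 10 genes and all listed genes left out of the variable genes. Clusters were named from marker lists. For each library and cell type with at least 10 cells, counts were added up and tested with edgeR 4.0.16 (TMM scaling, low counts filtered, quasi-likelihood test, Benjamini-Hochberg adjustment over all genes tested, called under 0.05). Groups had 2 libraries each, from separate embryos as far as the study's methods say. In the fits on subclusters, each dKO XY library gave a sum of Sertoli-like cells and a sum of feminized cells. The fit of feminized against Sertoli-like cells had the library as a block. The other fits on subclusters had none and treated these sums as independent. Percents of control are from the fitted fold change with 95% intervals. Shares of cells were taken after thinning to 5000 UMIs, and an absence allows up to 3 cells. Intervals of counts cover counting error only. No doublets were removed, and an alternative left out the 8% of cells with the highest doublet scores. Other alternatives were DESeq2 1.42.0, RLE scaling, no filter on low counts, other cell filters and clusterings, and leaving out each library. Some of the tests were also run on simulated data, with an outcome not reported here. Every simulated sum was drawn independently, so this could not check fits in which sums shared a library. The genes named in other lists were, per list, up to 4 called in supporting cells with the largest change and a mean log2 CPM of at least 3. The genes and lists were chosen with earlier results of these data known. Some results on genes of these lists are not reported here.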

Additional observations from a re-analysis of the deposited data

Results flagged for a closer look

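*Cst8* and *Mmd2* had log2 fold changes of opposite sign in different cell types of dKO XY against control XY, with every library of a group on the same side in each. How often genes at large separate in this way was not counted, so nothing is read from it. For *Mmd2* in Sertoli-like cells, the nearest libraries were at 69.2 CPM in dKO XY and 68.9 CPM in control XY. For *Cst8* the log2 fold change was 0.40 in Sertoli-like cells, 0.94 in interstitial cells and -0.14 in Leydig cells, where the gene is most abundant. For *Mmd2* it was 0.012 ± 0.17 in Sertoli-like cells (SE, adjusted p = 0.98 by edgeR), where its sign turned under other settings, and -0.27 in interstitial cells. None of these values was called in its own cell type, and the difference between the cell types was not tested.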

How the results depend on the processing

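Groups had 2 libraries each, which limits every call. Leaving out a library gave between 3 and 6 called genes of the 10 in all supporting cells, 1 to 4 in Sertoli-like cells, 8 to 9 for dKO XY and for feminized cells against control XX, 0 to 2 in interstitial and 1 to 5 in Leydig cells. Of 1160 alternative fold changes, 1068 kept direction and call, 16 lost the call, 51 gained it and 25 changed sign, none of which was a called value. In interstitial cells (0 called) DESeq2 and a fit of only the compared groups called 2, no filter on low counts 3, and the settings without the highest doublet scores, with more than 1500 genes per cell and with all variable genes 1 each. In Leydig cells (2 called) no filter and the replicate block called 5, adding *Cst9*, *Ptgds* and *Tesc*, the setting without the highest doublet scores 4 and more than 1500 genes per cell 3. A library left alone in its group was assumed to vary like the others.

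Over all genes, 2995 calls in supporting cells became 1409 without control XY replicate 2, 2091 in Sertoli-like cells became 967 without it and 1348 without control XY replicate 1, and 4172 for feminized cells against control XX became 2766 without control XX replicate 2. The 7895 of feminized against Sertoli-like cells became 3850 with DESeq2. The 1174 in interstitial cells became 1806 with no filter and 308 at the lowest without a library, and the 920 in Leydig cells became 2108 with no filter.

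The sample labels do not state whether libraries of the same number were paired. Correlations of their deviations ran from -0.207 to 0.14, which cannot decide it with 2 libraries per group. With the replicate block 5 of the 10 genes were called in supporting cells, 4 in Sertoli-like cells and 9 for feminized cells against control XX, and over all genes 692 in interstitial and 2070 in Leydig cells. Without the library as a block, 5335 genes differed between feminized and Sertoli-like cells. With a dKO XY library left out, the fit with this block had no residual degrees of freedom, and the fit without it was not run.

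Sign changes of log2 fold changes, none called, were as follows. In Sertoli-like cells *Gstm6* was -0.14 and *Mmd2* -0.14 with more than 1500 genes per cell, and -0.018 and -0.020 with principal components of supporting cells alone. In interstitial cells *Ptgds* was 0.020 with the replicate block, 0.0037 without the highest doublet scores, 0.062 with more than 1500 genes and 0.093 with all variable genes. In Leydig cells *Etd* was -0.41 without the highest doublet scores, and *Mmd2* 0.0059 and *Mro* -0.0069 with all variable genes. Leaving out a library gave, in supporting cells against control XY, -0.049 to 0.53 for *Aard*, -0.041 to 0.28 for *Cst8* and -0.027 to 0.47 for *Cst9*, and -0.31 to 0.013 for *Cst8* against control XX. In Sertoli-like cells it gave -0.62 to 0.12 for *Etd*, -0.024 to 0.041 for *Mmd2* and -0.35 to 0.0082 for *Ptgds*. In interstitial cells it gave -0.58 to 0.087 for *Etd*, -0.49 to 0.50 for *Mro*, -0.55 to 0.79 for *Ptgds* and -1.003 to 0.35 for *Tesc*, and in Leydig cells -0.097 to 0.0032 for *Mmd2* and -0.017 to 0.35 for *Mro*.

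The mean number of the 10 genes per dKO XY Sertoli-like cell, 7.33, was 7.38 without the highest doublet scores, 6.93 with more than 1500 genes, 7.39 with all variable genes and 6.39 when thinned to 3000 UMIs. Thinning to 3000 gave 6.25 for control XY Sertoli-like, 1.88 for feminized and 1.74 for control XX cells, and 1500 genes gave 2.15 for control XX. The cause of these changes was not tested.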
